A study of Mus musculus with 24 samples.

Results

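The serine and folate group described here is a fixed list of 9 enzyme genes (Phgdh, Psat1, Psph, Shmt1, Shmt2, Mthfd1, Mthfd1l, Mthfd2 and Aldh1l2), chosen by name from 24421 genes counted in mouse heart. The choice was made with earlier results of these data known, so counts over the 9 are descriptions of this list. All 9 passed the filter on low counts, which kept 15804 genes. The data are messenger RNA read counts from 24 heart samples of male mice aged 14 weeks on chow, 1 library each, on a mixed background of mostly C57BL/6N with some 129. Genotypes combine alleles of the genes for the long-chain (Acadl) and the very long-chain (Acadvl) acyl-CoA dehydrogenase, both enzymes of mitochondrial fatty acid oxidation. The control groups were Acadl wt / Acadvl wt with 4 libraries, Acadl Het / Acadvl wt with 4 and Acadl Het / Acadvl Het with 3. The knockout groups were Acadl KO / Acadvl wt with 4 libraries, Acadl KO / Acadvl Het with 5 and Acadl Het / Acadvl KO with 4. Every Acadvl KO library was thus also heterozygous for Acadl, as were the Acadl Het / Acadvl wt libraries it was compared with. The labels state neither that each sample is a different mouse nor in which cells the alleles were deleted, so every p-value below reflects the scatter of these libraries alone.

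Serine is made from the glycolytic intermediate phosphoglycerate by Phgdh, Psat1 and Psph in turn. Serine hydroxymethyltransferase then moves a carbon from serine to tetrahydrofolate and leaves glycine, with Shmt1 acting in the cytosol and Shmt2 in mitochondria. The folate-bound carbon is carried through its oxidation states by Mthfd1 in the cytosol and by Mthfd2, Mthfd1l and Aldh1l2 in mitochondria, and it serves purine, thymidylate and methionine synthesis and the formylation of the mitochondrial initiator tRNA. Several of these genes are known targets of Atf4, the transcription factor of the integrated stress response, which the series title names.

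Total counts ran from 34320838 to 51743114 per library. RNA was isolated in 2 batches, batch 1 with 9 libraries and batch 2 with 15, and every genotype had libraries in both. The targeted genes checked the labels: Acadvl lay between 494.7 and 733.8 CPM (read counts scaled to library size) in the 4 Acadl Het / Acadvl KO libraries and between 1550 and 1743 CPM in Acadl Het / Acadvl wt. Acadl went against its label, at 1697 to 2100 CPM in libraries labelled Acadl KO / Acadvl wt against 1324 to 1412 CPM in Acadl wt / Acadvl wt. The counts cover the whole gene, so a deleted exon would not be seen in them. Every direction given below for Acadl rests on the label. The 6 cardiomyocyte markers (Myh6, Tnnt2, Ttn, Ryr2, Actc1 and Myl2) summed to between 60590 and 79290 CPM in every library. The liver transcript Alb passed 10 CPM in 6 libraries: all 3 Acadl Het / Acadvl Het, Acadl Het / Acadvl KO replicate 2, and replicates 2 and 3 labelled Acadl KO / Acadvl wt. In Acadl Het / Acadvl Het replicate 1 the ribosomal RNA precursor Rn45s took 17.258% of counts, against 0.558% in the next library.

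Promoters of 4 members are shown because they cover the range of responses: Mthfd2, Psat1 and Phgdh had the highest fold changes of the group in Acadl Het / Acadvl KO, and Psph is the member whose level was lower. Each is the 250 bases before a RefSeq transcript start on GRCm38.p6, the build equivalent to mm10, 5′ to 3′ on the gene's own strand. Of the 9 members, 8 had an entry (Aldh1l2 had none), and Psat1 had 2, of which the first is printed. The 4 printed windows lie at chr6:83317605-83317854, chr19:15925060-15925309, chr3:98339970-98340219 and chr5:129787254-129787503 in the order printed, all on the minus strand.
Mthfd2: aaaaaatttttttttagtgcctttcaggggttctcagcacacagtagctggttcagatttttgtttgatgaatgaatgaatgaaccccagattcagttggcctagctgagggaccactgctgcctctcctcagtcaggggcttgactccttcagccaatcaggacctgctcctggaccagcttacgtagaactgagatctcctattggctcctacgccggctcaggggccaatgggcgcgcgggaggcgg
Psat1: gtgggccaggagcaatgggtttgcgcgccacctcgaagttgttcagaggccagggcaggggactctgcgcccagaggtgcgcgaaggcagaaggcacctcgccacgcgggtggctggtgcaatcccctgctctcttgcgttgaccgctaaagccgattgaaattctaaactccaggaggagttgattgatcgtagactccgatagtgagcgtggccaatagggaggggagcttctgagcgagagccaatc
Phgdh: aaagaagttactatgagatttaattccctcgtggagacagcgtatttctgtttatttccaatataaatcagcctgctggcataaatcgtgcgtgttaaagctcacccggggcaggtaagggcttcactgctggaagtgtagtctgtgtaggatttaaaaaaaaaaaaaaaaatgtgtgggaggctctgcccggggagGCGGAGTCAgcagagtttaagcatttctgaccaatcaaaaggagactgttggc
Psph: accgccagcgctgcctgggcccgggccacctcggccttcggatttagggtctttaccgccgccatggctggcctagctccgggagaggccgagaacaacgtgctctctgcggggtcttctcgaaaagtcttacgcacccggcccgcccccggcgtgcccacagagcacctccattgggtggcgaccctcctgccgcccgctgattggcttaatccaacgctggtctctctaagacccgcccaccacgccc
Capitals mark the match to TGACNNNGC, the antioxidant response element, which in Phgdh reads GCGGAGTCA on the printed strand, from 53 to 45 bases before the start. No other member with an entry had this motif in its window, against 10.2% of 32851 promoters of the same length, both strands searched. The composite element TGATGNAA, to which Atf4 binds with C/EBP partners, was in 0 of the 8 members and in 3.45% of all promoters. The E-box CACGTG was in 0 members and in 6.02%. These 3 motifs do not overlap one another in these windows, and matches elsewhere in the genes were not searched. The Psat1 entry that is not printed, at chr19:15924623-15924872, was searched too and held 0 matches to each motif.

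In hearts labelled Acadl KO / Acadvl wt, 7 of the 9 transcripts were higher than in Acadl wt / Acadvl wt, and Psph was lower. The highest fold changes were those of Mthfd2, of Mthfd1l, the formate-releasing synthetase of mitochondria, and of cytosolic Shmt1. Shmt2 did not pass the test. In this comparison 37.2% of all genes tested passed, 19.6% higher and 17.6% lower (edgeR's quasi-likelihood test, two-sided, Benjamini-Hochberg adjusted p under 0.05). The median log2 fold change was 1.08 over the 9 members and -0.02 over all genes. Groups without overlap were found for 5 members higher and 0 lower, against 18.1% and 17.7% of all genes. In bulk heart RNA, a change in the share of a cell type and a change of RNA per cell cannot be told apart.

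Among the serine synthesis genes, Phgdh (chr3:98313171-98339969), which catalyses the committed step, was at 2.21, 1.11, 3.73 and 1.25 CPM in replicates 1 to 4 labelled Acadl KO / Acadvl wt. In Acadl wt / Acadvl wt it was at 0.834, 0.982, 0.862 and 1.05 CPM. The groups did not overlap, but replicates 2 and 4 lay just above the wild-type range. The log2 fold change was 1.08 (SE 0.32, adjusted p = 0.01157, edgeR), and without replicate 3 it was 0.67 and no longer passed (adjusted p = 0.07034, edgeR).

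Psat1 (chr19:15905123-15925059), the aminotransferase of the next step, was at 17.4, 7.66, 16.6 and 3.79 CPM in libraries labelled Acadl KO / Acadvl wt, and at 5.29, 4.22, 4.37 and 4.62 CPM in Acadl wt / Acadvl wt. Replicate 4 lay below all wild-type libraries, so the groups overlapped, and the log2 fold change was 1.13 (SE 0.32, adjusted p = 0.008635, edgeR). Psph (chr5:129765558-129787253), the phosphatase that releases serine, was at 2.24, 3.13, 3.25 and 3.39 CPM against 4.49, 4.97, 3.17 and 4.33 CPM. Only wild-type replicate 3 lay among the labelled knockouts, and the log2 fold change was -0.50 (SE 0.16, adjusted p = 0.0201, edgeR). That call was lost without replicate 1 labelled Acadl KO / Acadvl wt, at -0.37, and without wild-type replicate 1 or 2, at -0.46 and -0.39.

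Shmt1 and Mthfd1 are the cytosolic pair. Shmt1 (chr11:60788897-60811265) was at 22.9, 32.4, 34.0 and 27.1 CPM in libraries labelled Acadl KO / Acadvl wt and at 14.9, 10.7, 12.0 and 10.5 CPM in Acadl wt / Acadvl wt, without overlap. Its log2 fold change was 1.24 (SE 0.16, adjusted p = 7.596e-06, edgeR). Mthfd1 (chr12:76255232-76319820), which joins dehydrogenase, cyclohydrolase and synthetase activities in one protein, was at 62.1, 60.2, 56.9 and 51.8 CPM against 32.6, 36.0, 35.5 and 34.1 CPM. These groups did not overlap either, and its log2 fold change was 0.71 (SE 0.08, adjusted p = 2.597e-06, edgeR). Liver also expresses both genes. The 8 hepatocyte markers summed to 17.83 to 137.5 CPM in these labelled knockouts and to 14.01 to 24.53 CPM in the wild type, none of the 8 at 0 in all libraries. Without the 6 libraries above 10 CPM of Alb, Shmt1 gave a log2 fold change of 1.06 and Mthfd1 0.71, both still called. Of the labelled knockouts, only replicates 1 and 4 remained in that fit.

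Among the mitochondrial enzymes, Mthfd2 (chr6:83305704-83317604), the NAD-dependent dehydrogenase and cyclohydrolase that is low in most adult tissues, was at 40.2, 19.1, 32.3 and 4.88 CPM in libraries labelled Acadl KO / Acadvl wt. In Acadl wt / Acadvl wt it was at 3.31, 2.70, 2.73 and 2.61 CPM. All 4 labelled knockouts lay above the wild type, with replicate 4 far below the other 3. The log2 fold change was 2.78 (SE 0.40, adjusted p = 3.618e-05, edgeR), the highest of the 9 members.

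Mthfd1l (chr10:3973075-4167081) was at 3.28, 1.25, 1.97 and 1.09 CPM against 0.736, 0.625, 0.600 and 0.613 CPM, without overlap, a log2 fold change of 1.38 (SE 0.26, adjusted p = 0.0003898, edgeR). These are low levels: the 24 libraries held as few as 22 reads of Mthfd1l and 34 of Phgdh. Aldh1l2 (chr10:83487447-83534140), which oxidises formyl-tetrahydrofolate to carbon dioxide with the formation of NADPH, was at 17.1, 10.3, 15.4 and 10.1 CPM against 9.19, 11.0, 8.75 and 9.26 CPM. The groups overlapped, and a log2 fold change of 0.44 (SE 0.17) passed by a narrow margin (adjusted p = 0.04888, edgeR). It was lost without replicate 1 or 3 labelled Acadl KO / Acadvl wt or without wild-type replicate 1, 3 or 4, and with limma voom.

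Shmt2 (chr10:127517123-127522444), the mitochondrial counterpart of Shmt1, was at 78.3, 61.7, 73.0 and 57.5 CPM against 53.4, 53.7, 58.8 and 57.1 CPM. Replicate 4 fell within the wild-type range, and the log2 fold change of 0.26 (SE 0.10, 95% interval 0.05 to 0.48) missed the threshold (adjusted p = 0.05001, edgeR). Without that replicate it was 0.34 and passed (adjusted p = 0.01802, edgeR). Of Shmt2's 2305 exon bases, 34 are shared with Ndufa4l2 on the opposite strand, and reads were counted without regard to strand.

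**Figure D1:**
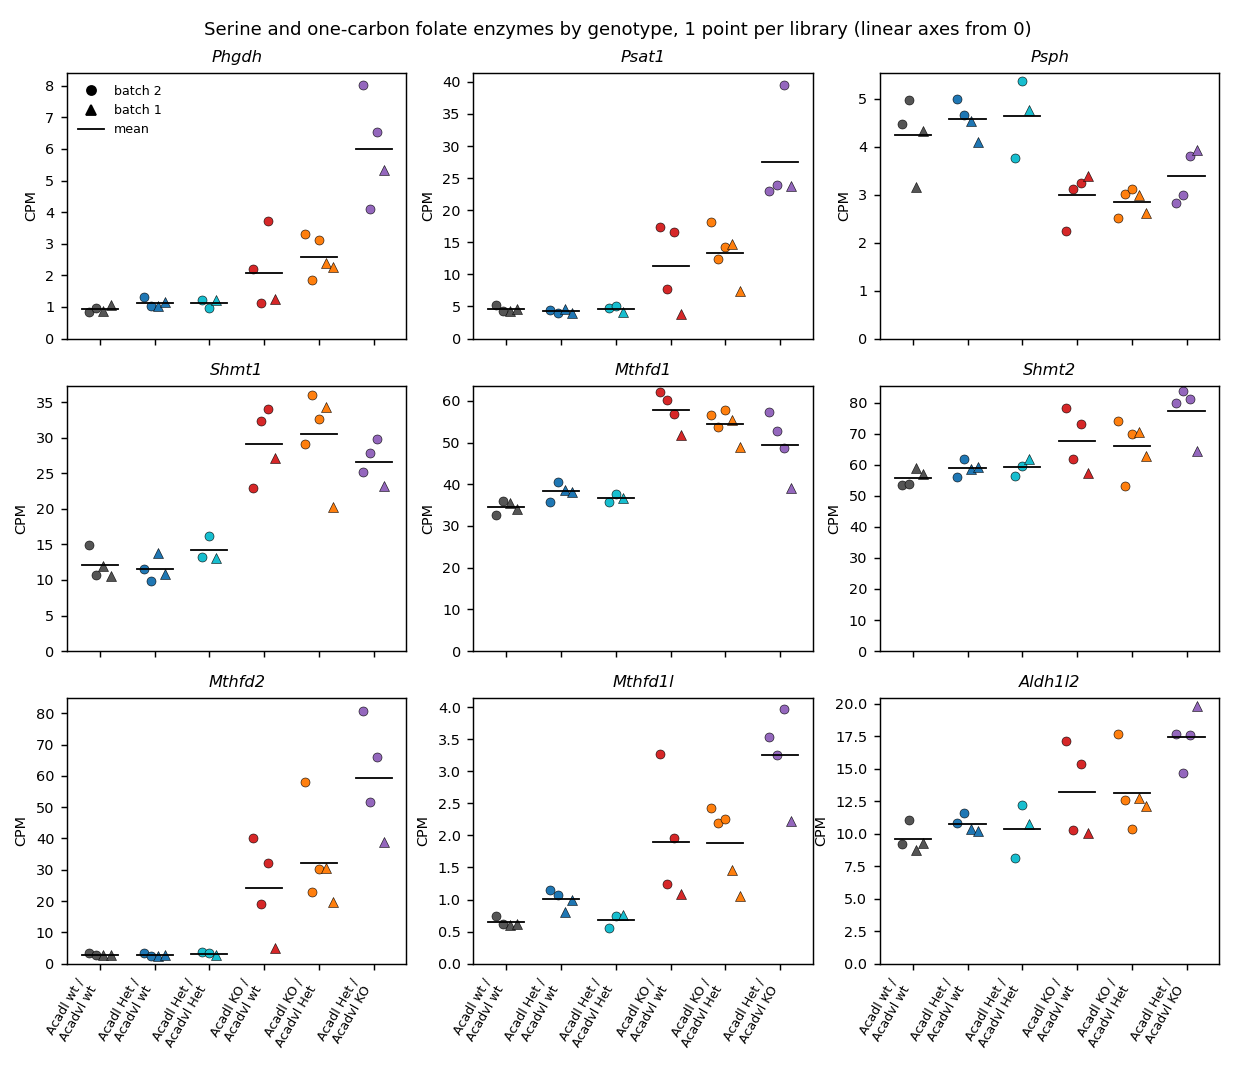
Level of each of the 9 enzymes in CPM (linear axes from 0) in the 6 genotypes, 1 point per library, circles for RNA isolation batch 2 and triangles for batch 1, with the group mean as a line. Mthfd2 sits between 2.28 and 3.59 CPM in the 11 libraries labelled neither Acadl KO nor Acadvl KO and between 4.88 and 80.9 CPM in the other 13, while Psph is the panel in which the knockouts lie mostly lower.

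Replicate 4 labelled Acadl KO / Acadvl wt stood apart for several members. It was the only library of that genotype in batch 1, so within batch 1 this comparison set 1 library against 2. There Mthfd2 gave 0.88 and Psat1 -0.24, none of the 9 members was called by edgeR, and with 1 library the batch and that library cannot be told apart. Within batch 2 (3 against 2 libraries) Mthfd2 gave a log2 fold change of 3.35 and Psat1 1.55. Without replicate 4, all 9 members were called, Mthfd2 at 3.20, Psat1 at 1.47 and Phgdh at 1.27. Atf4 was at 143.7 CPM in replicate 4, at 267.2 to 381.0 CPM in the other 3 libraries of the genotype, and at 64.18 to 79.11 CPM in the wild type. With the spread estimated from the 8 libraries compared alone, 4 members were called in place of 8, without Phgdh, Psat1, Psph and Aldh1l2. Beside these changes, 2 of 4 Schwann cell markers were lower, summing to 4.31 to 6.51 CPM against 7.04 to 10.7 CPM in the wild type. No other marker list had more than 1 called gene, and the part of these cells in the result was not tested.

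Against Acadl Het / Acadvl wt, which shares the labelled knockout libraries with the comparison above, 5 of 9 members were higher and 1 lower (all genes: 34.8% called, 18.1% higher and 16.7% lower). The median over the 9 was 0.75, against -0.01 over all genes. Without overlap, 3 members were higher and 1 lower, against 16.7% and 15.6% of all genes. Mthfd2 had a log2 fold change of 2.85 (SE 0.41, adjusted p = 3.399e-05, edgeR), from Acadl Het / Acadvl wt levels of 3.46, 2.44, 2.28 and 2.68 CPM, and the groups did not overlap. Shmt1 gave 1.30, Psat1 1.25, Mthfd1l 0.75 and Mthfd1 0.56, and Psph -0.61, all called. Phgdh missed narrowly, at 0.81 (adjusted p = 0.05013, edgeR), but ran from 0.39 without replicate 3 labelled Acadl KO / Acadvl wt (adjusted p = 0.2853, edgeR) to 1.03 without replicate 2 (adjusted p = 0.01357, edgeR). Shmt2 at 0.18 and Aldh1l2 at 0.27 were not called either. Mthfd1l lost the call without replicate 1 labelled Acadl KO / Acadvl wt, at 0.42, and without Acadl Het / Acadvl wt replicate 1 or 2. With the libraries of this comparison alone, Psat1 (1.11) and Mthfd1l (0.74) were not called. Schwann cell markers were lower here too, in 2 of 4.

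Loss of 1 Acadl allele left the group without a called change. Between Acadl Het / Acadvl wt and Acadl wt / Acadvl wt, which share libraries with both comparisons above, edgeR called 0 of 9 members and 0% of all genes. At an unadjusted p under 0.05 it found 541 genes; DESeq2 called 1 gene, no member, and limma voom 0. Mthfd1l was the 1 member below that unadjusted level, and its adjusted p was 0.9997 (edgeR). It was at 1.15, 1.07, 0.806 and 0.989 CPM in Acadl Het / Acadvl wt, above the wild-type range of 0.600 to 0.736 CPM, with a log2 fold change of 0.64 (95% interval 0.06 to 1.22). The Acadl Het / Acadvl Het libraries, also heterozygous for Acadl, were at 0.557, 0.737 and 0.765 CPM, not all above that range. Of all genes, 1.88% had every Acadl Het / Acadvl wt library above every wild-type library.

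On a background with 1 mutant Acadvl allele, Mthfd2 again had the highest fold change of the 9. Between those labelled Acadl KO / Acadvl Het and Acadl Het / Acadvl Het, 6 members were higher and Psph was lower, against 40.6% of all genes called, 20.1% higher and 20.5% lower. The median over the 9 was 1.11, against -0.02 over all genes. Groups without overlap were found for 6 members higher and 1 lower, against 18.4% and 18.8% of all genes. None of these libraries was used in the comparisons above.

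In the 5 libraries labelled Acadl KO / Acadvl Het, Mthfd2 was at 58.1, 22.8, 30.1, 30.5 and 19.8 CPM, and at 3.59, 3.24 and 2.84 CPM in the 3 controls, far from overlap. The log2 fold change was 3.35 (SE 0.44, adjusted p = 1.817e-05, edgeR). It was 3.15 within batch 1 (2 libraries against 1) and 3.44 within batch 2.

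Of the serine synthesis genes, Phgdh was at 3.32, 1.84, 3.13, 2.40 and 2.25 CPM against 1.21, 0.958 and 1.21 CPM, and Psat1 at 18.1, 12.4, 14.2, 14.7 and 7.44 CPM against 4.73, 5.04 and 4.19 CPM. Neither pair of groups overlapped, and the log2 fold changes were 1.20 and 1.54. Psph, at 2.51, 3.02, 3.13, 2.99 and 2.62 CPM, lay below all 3 controls, at 3.77, 5.38 and 4.76 CPM, with a log2 fold change of -0.69 (SE 0.17, adjusted p = 0.002532, edgeR).

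Of the folate enzymes, Mthfd1l gave 1.46, Shmt1 1.11 and Mthfd1 0.57, all called and without overlap. Shmt2 at 0.16 and Aldh1l2 at 0.34 were not called, and their groups overlapped. The hepatocyte markers summed to 58.96 to 288.2 CPM in these controls and to 19.13 to 43.13 CPM in the labelled knockouts, with 7 of 8 called lower, and their part in the result was not tested. All 3 controls were above 10 CPM of Alb, so no value can be given without them. Of the dividing-cell markers 2 of 4 were called higher (9.85 to 21.4 CPM in sum against 8.65 to 15.8 CPM), and of the Schwann cell markers 2 of 4 lower (3.53 to 4.83 against 6.81 to 7.42 CPM). Their part in the result was not tested either.

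Adding 1 mutant Acadvl allele to the Acadl KO label, as tested between Acadl KO / Acadvl Het and Acadl KO / Acadvl wt, gave 0 called members and 0% of all genes by edgeR. At an unadjusted p under 0.05 there were 1396 genes, DESeq2 called 91, no member among them, and limma voom 0. For Mthfd2 the log2 difference was 0.62, with a 95% interval of -0.08 to 1.32 that includes both 0 and 1. The interaction of the labels Acadl KO and Acadvl Het called 0 members and 0% of all genes by edgeR (817 genes at an unadjusted p under 0.05, 100 by DESeq2, no member among them, 0 by limma voom). For Mthfd2 the interaction was 0.50 (95% interval -0.70 to 1.71) and for Mthfd1l 0.72 (-0.08 to 1.51), so a difference between the backgrounds was not detectable with these numbers of libraries.

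Of the 6 genotypes, Acadl Het / Acadvl KO had the highest mean levels of Phgdh, Psat1, Mthfd2, Mthfd1l, Aldh1l2 and Shmt2. Between Acadl Het / Acadvl KO and Acadl Het / Acadvl wt, 8 of 9 members were higher and none was called lower, against 24.4% of all genes called, 12.9% higher and 11.5% lower. The median over the 9 was 1.16 and over all genes 0.02. Without overlap, 7 members were higher and 1 lower, against 11.7% of all genes in each direction. The Acadl Het / Acadvl wt controls are those of the comparisons above.

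Mthfd2 was at 80.9, 51.7, 66.1 and 38.8 CPM in Acadl Het / Acadvl KO, where the controls were at 3.46, 2.44, 2.28 and 2.68 CPM. The lowest knockout stood far above the highest control, with a log2 fold change of 4.24 (SE 0.41, adjusted p = 1.128e-06, edgeR). Within batch 1 (1 library against 2) it was 3.98 and within batch 2 (3 against 2) 4.50.

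Phgdh was at 8.04, 4.09, 6.52 and 5.32 CPM against 1.32, 1.02, 1.04 and 1.16 CPM, a log2 fold change of 2.34 (SE 0.28, adjusted p = 7.596e-06, edgeR). Psat1 was at 23.0, 23.9, 39.6 and 23.8 CPM against 4.47, 3.93, 4.63 and 3.94 CPM, with a log2 fold change of 2.58 (SE 0.32, adjusted p = 1.162e-05, edgeR). In both genes each knockout library lay above every control. Psph ran the other way, at 2.83, 2.99, 3.81 and 3.93 CPM against 4.99, 4.66, 4.53 and 4.11 CPM. These groups did not overlap, yet the log2 fold change of -0.43 (SE 0.16, 95% interval -0.76 to -0.10) missed the threshold (adjusted p = 0.05147, edgeR).

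Mthfd1l gave 1.54 (SE 0.23, adjusted p = 7.829e-05, edgeR), from 3.53, 3.26, 3.97 and 2.23 CPM against the heterozygote levels given above, without overlap. Aldh1l2 was at 17.7, 14.7, 17.6 and 19.8 CPM against 10.8, 11.6, 10.3 and 10.2 CPM, a log2 fold change of 0.68 (SE 0.17, adjusted p = 0.005524, edgeR), and Shmt2 at 79.9, 83.9, 81.3 and 64.6 CPM against 56.0, 61.9, 58.6 and 59.3 CPM, of 0.38 (SE 0.10, adjusted p = 0.01027, edgeR). Here both were called and their groups did not overlap. The cytosolic Shmt1, at 25.2, 27.9, 29.8 and 23.1 CPM against 11.6, 9.85, 13.7 and 10.9 CPM, gave 1.16 without overlap. Mthfd1, at 57.3, 52.8, 48.6 and 39.0 CPM against 35.8, 40.6, 38.5 and 38.2 CPM, gave 0.34, was called, and overlapped through replicate 4. That library is the only Acadl Het / Acadvl KO library of batch 1, and within batch 1 Mthfd1 gave 0.04. The hepatocyte markers summed to 15.28 to 101.8 CPM in these knockouts and 20.68 to 36.76 CPM in their controls, with none of 8 called. Without the libraries above 10 CPM of Alb, Shmt1 gave 1.16 and Mthfd1 0.32. With the libraries of this comparison alone Mthfd1 was not called (0.32). Of the macrophage markers 2 of 4 were called higher in Acadl Het / Acadvl KO, with sums of 166 to 343 CPM against 154 to 179 CPM in the controls. Of the Schwann cell markers 1 of 4 was lower, with sums of 4.54 to 7.12 CPM against 7.40 to 10.4 CPM. The part of these cells in the 8 called members was not tested.

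**Figure D2:**
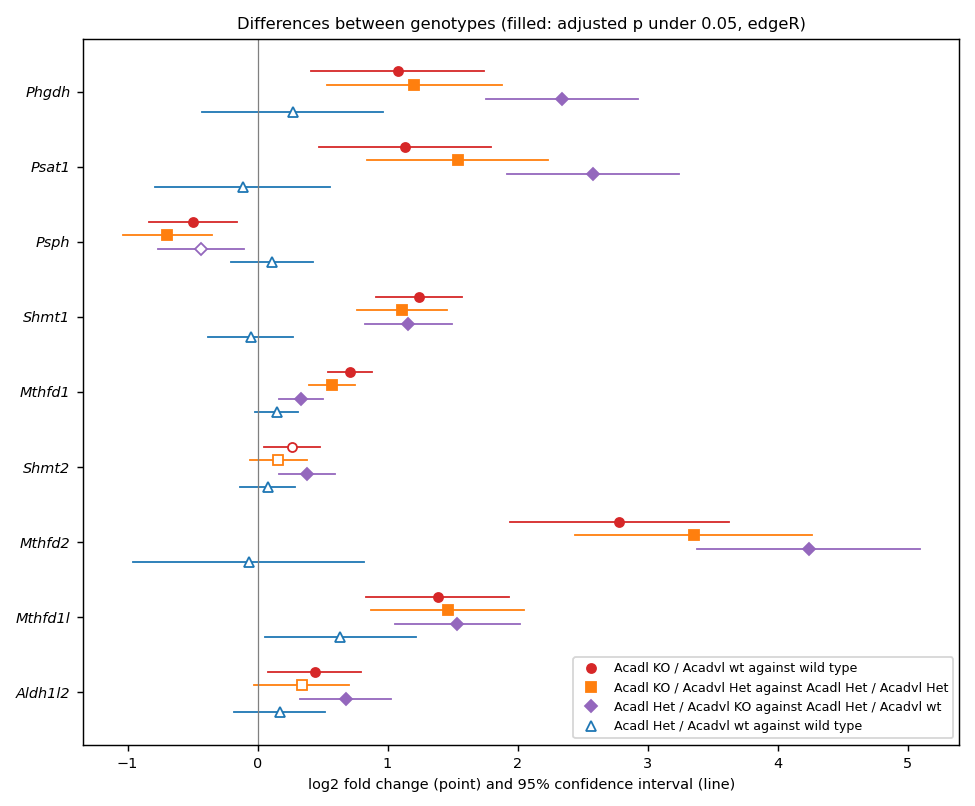
Log2 fold change (points) with its 95% confidence interval (lines) of the 9 enzymes in 4 comparisons, where filled points have an adjusted p under 0.05 (edgeR) and the controls are partly shared. Mthfd2 stands farthest right at 2.78, 3.35 and 4.24 in the 3 knockout comparisons, Psph lies left of 0 in all 3, and the single-allele comparison (triangles) has no filled point.

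The labelled Acadl KO / Acadvl Het and Acadl Het / Acadvl KO libraries carry 3 mutant alleles each and differ in which gene is lost. Compared directly, Phgdh, Psat1 and Mthfd1l were lower in the labelled Acadl KO / Acadvl Het libraries and no member was higher, against 8.77% of all genes called, 3.3% higher and 5.47% lower. The median over the 9 was -0.40, against 0.00 over all genes. Without overlap, 0 members were higher and 2 lower, against 3.69% and 3.8% of all genes. Both groups were used in comparisons above.

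Phgdh differed by a log2 fold change of -1.18 (SE 0.24, adjusted p = 0.007905, edgeR), and its highest labelled Acadl KO / Acadvl Het library, at 3.32 CPM, lay below the lowest Acadl Het / Acadvl KO library, at 4.09 CPM. Psat1 differed by -0.99 (SE 0.27, adjusted p = 0.03043, edgeR), also without overlap, since 18.1 CPM was the highest on the one side and 23.0 CPM the lowest on the other. Mthfd1l differed by -0.71 (SE 0.20, adjusted p = 0.0337, edgeR), with 2 libraries labelled Acadl KO / Acadvl Het (2.43 and 2.26 CPM) above the lowest Acadvl knockout (2.23 CPM). Leaving out some single libraries ended the calls for Psat1 and Mthfd1l, as with Acadl Het / Acadvl KO replicate 3 (-0.82, adjusted p = 0.1037, and -0.65, adjusted p = 0.09872, edgeR). Phgdh kept its call whichever 1 library was left out, between -1.34 and -1.05, but lost it with the libraries of this comparison alone (-1.20). There, and within either batch alone, no member was called. Macrophage markers were lower in the labelled Acadl KO / Acadvl Het libraries in 2 of 4 genes (109 to 207 CPM in sum against 166 to 343 CPM), and their part in the result was not tested.

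Mthfd2, at -0.77 (95% interval -1.43 to -0.10, adjusted p = 0.1242, edgeR), was not called between these groups, nor were Aldh1l2 (-0.40), Psph (-0.24) and Shmt2 (-0.22). For the cytosolic enzymes the intervals were -0.08 to 0.53 for Shmt1 and 0.00 to 0.32 for Mthfd1.

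Levels of different enzymes were compared per kilobase of exon. In Acadl wt / Acadvl wt the order was led by Shmt2 (24.2 ± 1.2 CPM per kilobase, SD, n = 4), Mthfd1 (10.4 ± 0.46) and Shmt1 (5.83 ± 0.99), and then came Psph (2.76 ± 0.50). Psat1 (1.86 ± 0.19) and Aldh1l2 (1.59 ± 0.17), and Aldh1l2 and Mthfd2 (1.37 ± 0.15), lay within their combined spread. Phgdh (0.499 ± 0.055) and Mthfd1l (0.149 ± 0.014) were lowest. In Acadl Het / Acadvl KO, Mthfd2 stood at 28.7 ± 8.8 CPM per kilobase (SD, n = 4), a place from which Shmt2 (33.6 ± 3.8) could not be separated. Mthfd2 had thus gone from the seventh to the second place of 9 between these groups. Psph (2.21 ± 0.36) had gone from the fourth to the eighth place. There it lay within its combined spread with Aldh1l2 (2.89 ± 0.35) and with Phgdh (3.20 ± 0.90), so these places could not be separated.

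Mitochondrial and cytosolic enzymes were also set against each other within libraries. The ratio of Mthfd2 to Mthfd1, each in CPM per kilobase of exon, was 0.12 to 0.163 in single Acadl wt / Acadvl wt libraries. It was 0.151 to 1.04 in the labelled Acadl KO / Acadvl wt libraries and 1.57 to 2.27 in Acadl Het / Acadvl KO. The ratio of Shmt2 to Shmt1 lay the other way, at 3.20 to 4.87 in Acadl wt / Acadvl wt, 1.71 to 3.06 in the labelled Acadl KO / Acadvl wt libraries and 2.44 to 2.85 in Acadl Het / Acadvl KO. Within serine synthesis, the median ratio of Phgdh to Psph was 0.181, 0.558 and 1.27 in the same 3 groups. These ratios are all per kilobase of exon and are descriptions without a test.

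**Figure D3:**
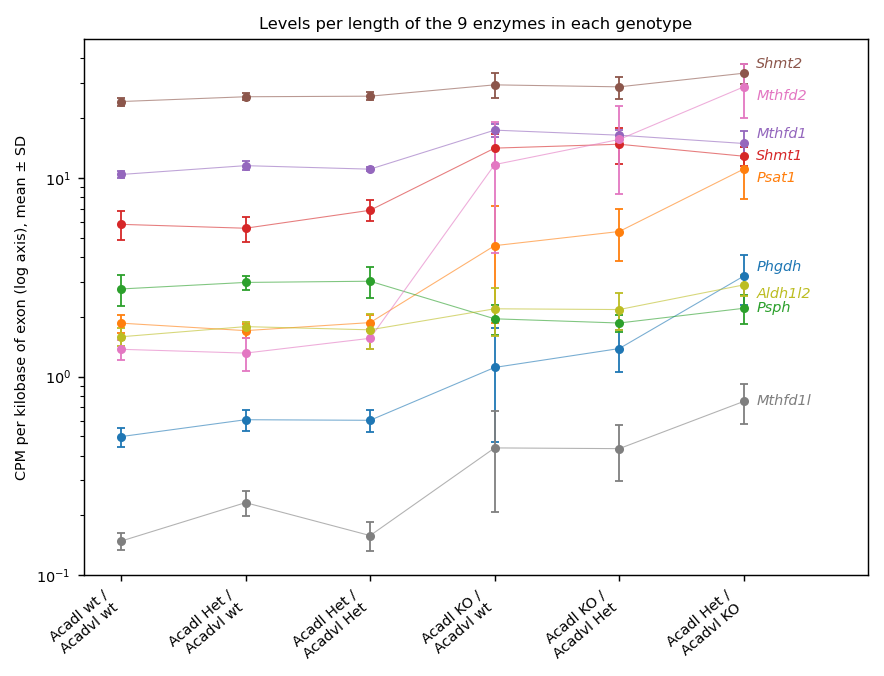
Mean level per kilobase of exon (log axis, error bars SD, n = 3 to 5 libraries) of the 9 enzymes in the 6 genotypes, with lines that only join points of 1 gene. Mthfd2 goes from 1.37 CPM per kilobase and the seventh place in Acadl wt / Acadvl wt to 28.7 and the second place in Acadl Het / Acadvl KO, while the mean of Shmt2 is highest in all 6.

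Across all 24 libraries, the genes whose level followed that of Mthfd2 most closely, out of 13185 with a mean of at least 1 CPM, were Gars (Pearson r = 0.983 on log2 CPM), Slc7a5 (0.979), Atf4 (0.976), Nars (0.975) and Sars (0.973). Gars, Nars and Sars encode aminoacyl-tRNA synthetases and Slc7a5 a transporter of large neutral amino acids. The libraries share genotypes, so these values hold differences between groups. After the genotype and batch means were removed, r was 0.839 for Gars, 0.79 for Slc7a5, 0.784 for Atf4, 0.805 for Nars and 0.813 for Sars, as a description across 24 libraries. Treated the same way, the member closest to Mthfd2 was Psat1 (0.83), followed by Shmt2 (0.70) and Phgdh (0.66). Mthfd1l (0.6), Aldh1l2 (0.56) and Mthfd1 (0.34) came next. Shmt1 (-0.05) did not follow Mthfd2, and Psph (-0.48) ran the other way. The labelled Acadl KO / Acadvl wt replicate 4, low for Mthfd2 and Atf4 alike, is among these points.

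Atf4, which activates amino acid genes in the integrated stress response, gave a log2 fold change of 1.95 (SE 0.20) for the labelled Acadl KO / Acadvl wt against Acadl wt / Acadvl wt and 2.20 (SE 0.21) for Acadl Het / Acadvl KO against its control, both called. Of the other regulators listed, Atf5 (1.32 and 1.97), Ddit3 (1.37 and 1.87) and Myc (2.24 and 1.54) were called higher in both comparisons. Nfe2l2, which acts through the antioxidant element, was not (0.24, adjusted p = 0.07433, and 0.22, adjusted p = 0.1273, edgeR). Whether any of these acted on the 9 enzymes was not tested.

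**Figure D4:**
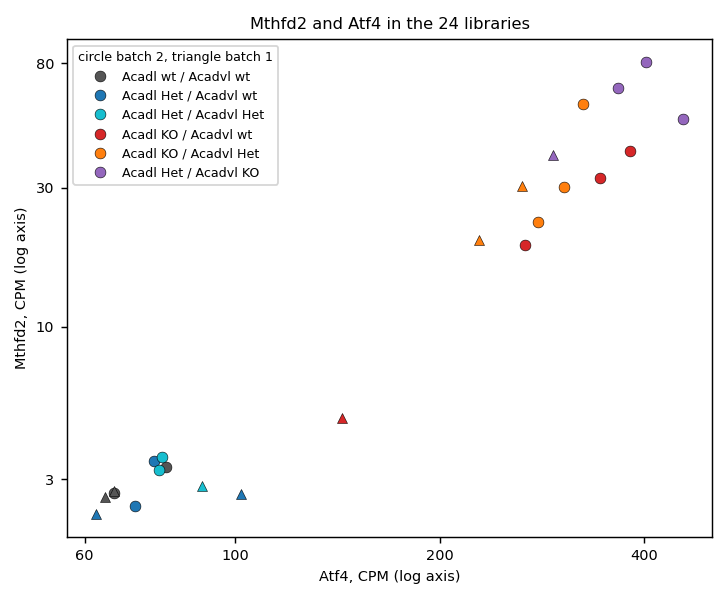
Mthfd2 against Atf4 in CPM (log axes), 1 point per library, coloured by genotype, circles for batch 2 and triangles for batch 1. The labelled Acadl KO / Acadvl wt replicate 4, at 143.7 CPM of Atf4 and 4.88 CPM of Mthfd2, lies between the 11 libraries labelled neither Acadl KO nor Acadvl KO and the other 12.

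Calls in the rest of the serine, glycine, folate and purine network went in both directions. Of 41 other genes, all tested, 8 were higher and 9 lower in the labelled Acadl KO / Acadvl wt libraries than in Acadl wt / Acadvl wt (median 0.03), where 19.6% of all genes were higher and 17.6% lower. Against Acadl Het / Acadvl wt these were 8 and 10, with 18.1% and 16.7% of all genes. The labelled Acadl KO / Acadvl Het libraries against Acadl Het / Acadvl Het had 9 and 13 (median -0.20), with 20.1% and 20.5% of all genes. Acadl Het / Acadvl KO against its control had 8 and 7 (median 0.03), with 12.9% and 11.5%. Nothing particular to these genes is read from these counts.

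Genes for transport of serine and glycine were called in the higher direction only, in 3 of 7 genes for the labelled Acadl KO / Acadvl wt (all genes: 19.6% higher) and in 5 of 7 for Acadl Het / Acadvl KO (all genes: 12.9% higher). Slc1a4, a neutral amino acid transporter that takes up serine, went from 1.95 ± 0.11 CPM in Acadl wt / Acadvl wt (SD, n = 4) to 8.27 ± 6.0 in the labelled knockout (n = 4), a log2 fold change of 2.02 (SE 0.45, adjusted p = 0.001575, edgeR). In Acadl Het / Acadvl KO it was at 15.8 ± 5.6 CPM against 2.07 ± 0.34 (n = 4 each), a log2 fold change of 2.89. Slc6a9, the glycine transporter GlyT1, gave 1.32 and 2.82 in these comparisons. The former call was lost in single leave-outs (1.02 to 1.17 without replicate 1 or 3 labelled Acadl KO / Acadvl wt or wild-type replicate 1 or 2) with limma voom (1.13) and with the compared libraries alone (1.30). Sfxn1, the mitochondrial serine carrier, gave 0.77 in Acadl Het / Acadvl KO, with Sfxn3 at 0.51.

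Calls among serine breakdown genes went in both directions in each comparison, while those among folate handling genes differed in direction between comparisons. Sds, serine dehydratase, went from 2.94 ± 0.48 to 1.23 ± 0.28 CPM in the labelled Acadl KO / Acadvl wt (SD, n = 4 each), a log2 fold change of -1.24, and gave -1.06 in Acadl Het / Acadvl KO. Of the 3 serine breakdown genes, 2 were lower in both comparisons, and Srr, serine racemase, was higher, at 0.42 and 0.35. Of 9 genes of folate uptake and handling, 3 were lower and none higher in the labelled Acadl KO / Acadvl wt. In Acadl Het / Acadvl KO, 1 was higher and none lower. Of all genes, 19.6% were higher and 17.6% lower in the former comparison, and 12.9% higher and 11.5% lower in the latter. In the labelled Acadl KO / Acadvl wt libraries the glycine cleavage enzyme Amt gave -0.98, the folate carrier Slc46a1 -1.11, and sarcosine dehydrogenase Sardh -0.68. In Acadl Het / Acadvl KO, Sardh gave -0.59 and Mthfd2l, the isoform of Mthfd2, -0.48, while the reduced folate carrier Slc19a1 gave 0.58. Slc19a1 lost its call when any 1 of 4 libraries was left out, namely replicates 2 and 3 of the knockout and replicates 2 and 4 of its control (0.46 to 0.61), and Mthfd2l (-0.38) and Sfxn3 (0.44) lost theirs without Acadl Het / Acadvl wt replicate 2. With the libraries of this comparison alone, Sds (-0.93), Sardh (-0.57), Mthfd2l (-0.47), Sfxn3 (0.47) and Slc19a1 (0.53) were no longer called. Slc46a1 in the labelled Acadl KO / Acadvl wt was not called without the libraries above 10 CPM of Alb (-1.13).

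Purine synthesis uses, in some of its steps, the formyl groups that folate carries. In the labelled Acadl KO / Acadvl wt libraries, 3 of 8 purine synthesis genes were higher and none lower (all genes: 19.6% higher). Adsl, adenylosuccinate lyase, led them, at 124.9 ± 17.9 CPM against 74.0 ± 4.5 (SD, n = 4 each), a log2 fold change of 0.74 (SE 0.09, adjusted p = 3.886e-06, edgeR). In Acadl Het / Acadvl KO, Adsl (0.40) was the 1 of 8 called higher, with 12.9% of all genes higher there.

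**Figure D5:**
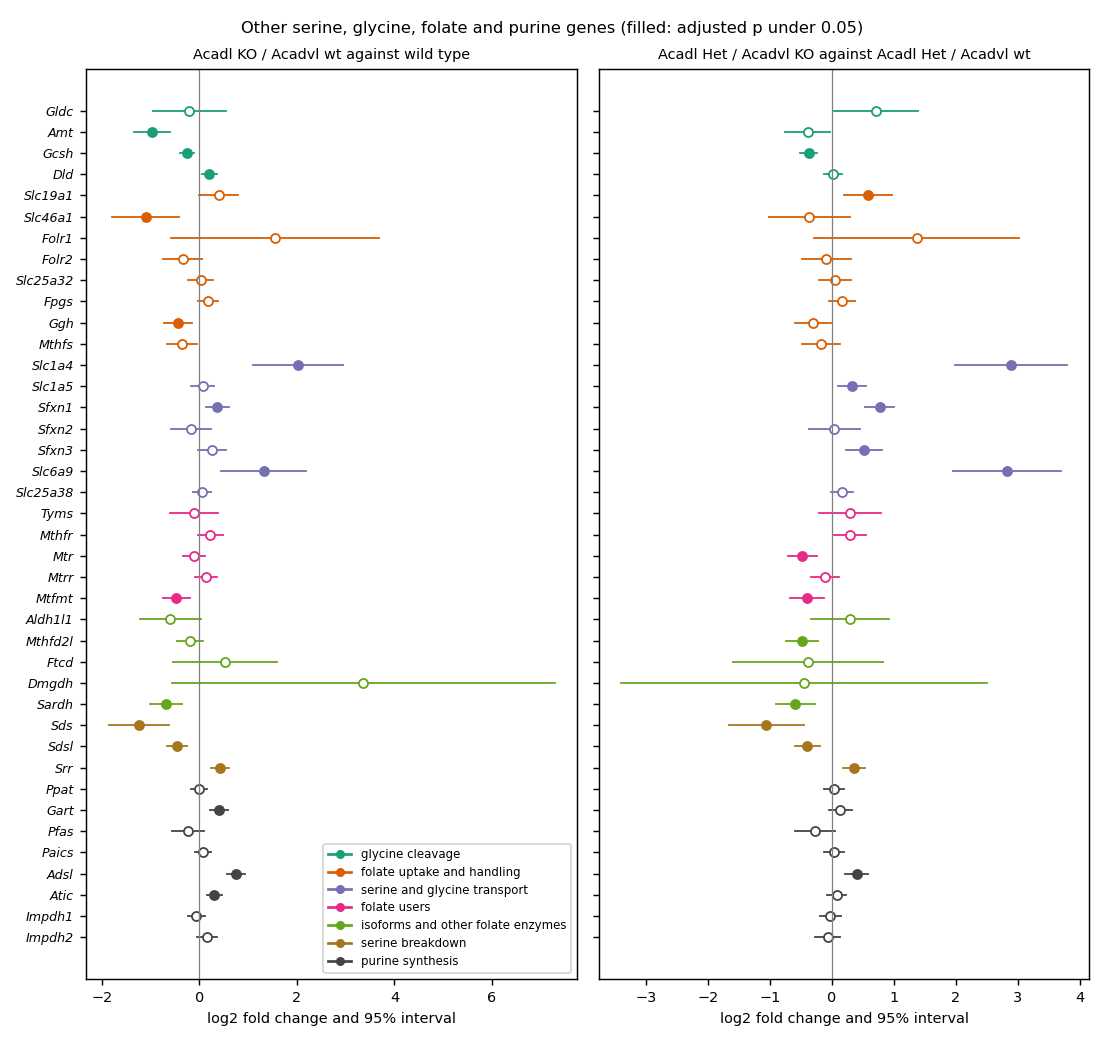
Log2 fold change and 95% confidence interval of 40 of the 41 other serine, glycine, folate and purine genes, coloured by role, in 2 comparisons that share no library, with filled points for an adjusted p under 0.05 (edgeR). Slc1a4 and Slc6a9 stand farthest right among filled points (2.02 and 1.32 on the left, 2.89 and 2.82 on the right), and Sds farthest left (-1.24 and -1.06).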

How the data were processed

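Heart RNA (QIAzol, RNeasy) was captured by its polyA tail and sequenced as single-end reads, per the labels' protocols. The authors deposited 1 table of unnormalised counts per library, made with featureCounts 1.5.2 per the file headers, on UCSC mm10 genes, from primary alignments, without a strand option and with a read over several genes given to all of them. STAR 2.5.1b, featureCounts 1.5.3, mm10 and GRCm38 are listed in the submitters' processing notes. Positions are those of the count files, counted from 1.

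Libraries were grouped by the genotype label and numbered within a genotype in accession order. In R 4.3.3, edgeR 4.0.16 fitted all 24 libraries at once, with terms for genotype and isolation batch, TMM scaling and filterByExpr, which left 15804 genes and 17 residual degrees of freedom. Tests were two-sided quasi-likelihood F tests, with Benjamini-Hochberg adjustment over all genes tested and a threshold of 0.05. For some of the comparisons, the edgeR test was also run on simulated counts, drawn with the same dispersion of a gene in all genotypes. The alternative fits were not run on simulated counts. Levels are CPM with TMM factors. Correlations used log2 of CPM plus 0.1. DESeq2 1.42.0, limma 3.58.1 (voom), other scaling factors, no filter, no batch term, single batches, leave-outs, and fits without Rn45s, without libraries above 10 CPM of Alb or with the compared libraries alone were the alternatives. Pairs of libraries of a genotype had a chi-square of 15.7 to 557.7 per degree of freedom, more than sampling noise, and all were kept.

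The 9 members and the lists of other pathway genes, regulators and cell markers were chosen with earlier results of these data known. Named were the members, the targeted genes, 5 regulators, the 5 genes most like Mthfd2, and, per comparison, up to 8 called genes of the other 41 with a mean of at least 1 CPM and the largest change, of which the text gives those of 2 comparisons; 1 of the 41 is counted but not reported here. Srr was named after its values were seen. Promoters come from RefSeq.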

Additional observations from a re-analysis of the deposited data

Results flagged for a closer look

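Of 45 groups of 4 or 5 libraries (9 enzymes in 5 genotypes), 2 had a library far from the others, where chance alone flags about 1 group in 20. Psat1 in Acadl Het / Acadvl KO replicate 3 was at 39.56 CPM, with the other 3 libraries at 23.0 to 23.9 CPM. Mthfd2 in Acadl KO / Acadvl Het replicate 1, as labelled, was at 58.07 CPM, with the other 4 libraries at 19.8 to 30.5 CPM.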

How the results depend on the processing

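The 32 called differences of the 9 enzymes were recomputed under 604 alternatives in all: 535 kept the direction and the call, 67 lost the call and 2 changed direction. Outside batch 1 alone, which holds 1 or 2 libraries per genotype, 21 of the 32 kept the call under every alternative run. Counts of called enzymes for the labelled Acadl KO / Acadvl wt against Acadl wt / Acadvl wt were 4 with the compared libraries alone, 0 in batch 1, and 6 to 9 with 1 library left out. Against Acadl Het / Acadvl wt they were 0 in batch 1, for the labelled Acadl KO / Acadvl Het against Acadl Het / Acadvl Het 1 in batch 1, and for Acadl Het / Acadvl KO 4 in batch 1. For the labelled Acadl KO / Acadvl Het against Acadl Het / Acadvl KO they were 0 with the compared libraries alone, 0 in batch 1, 0 in batch 2, and 1 to 4 with 1 library left out.

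Counts among the 41 other genes were 0 in batch 1 and 11 in batch 2 for the labelled Acadl KO / Acadvl wt against Acadl wt / Acadvl wt, 0 in batch 1 against Acadl Het / Acadvl wt, 2 in batch 1 for the labelled Acadl KO / Acadvl Het, and 6 with the compared libraries alone and 0 in batch 1 for Acadl Het / Acadvl KO.

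Directions changed within batch 1 alone: Psat1 (-0.24 against Acadl wt / Acadvl wt, -0.17 against Acadl Het / Acadvl wt), Shmt2 (0.00 and -0.03 in the same comparisons, 0.02 against Acadl Het / Acadvl KO), Aldh1l2 (-0.03) and Myc (-0.08) against Acadl Het / Acadvl wt, Slc6a9 (-0.03 against Acadl wt / Acadvl wt) and Slc46a1 (0.13 against Acadl Het / Acadvl Het). The cause was not tested. In the 3 comparisons without a called gene, uncalled differences of at most 0.30 changed sign in 7 of 171, 19 of 180 and 23 of 234 values (Acadl Het against wild type, Acadvl Het added, interaction); after this was seen, only Mthfd2 and Mthfd1l were given singly there. Upper-quartile scaling moved the median of all genes to -0.112 and -0.119 for the labelled Acadl KO against Acadl wt / Acadvl wt and against Acadl Het / Acadvl Het. No paired analysis was possible because replicate numbers follow accession order and the first number in the sample titles, whose meaning the labels do not give, is shared at most once between any compared pair of genotypes; a block of that number over all 24 libraries was not fitted. Reads per library limit Mthfd1l and Phgdh most, with minima of 22 and 34.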
